A study of Mus musculus with 10 samples.

Results

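Keratin genes were followed at gestation day (GD) 3.5, when the uterus is prepared for an implanting embryo, in 5 uteri of control genotype, Arid1a f/f, and 5 uteri of the conditional knockout (cKO), Ltf iCre/+ Arid1a f/f. The 10 members were taken by symbol and cover 3 kinds of keratin: those of simple epithelia (Krt7, Krt8, Krt18, Krt19), those of stratified epithelia or stress (Krt5, Krt14, Krt15, Krt17), and the less studied Krt23 and Krt80. They are 10 of the 54 keratin genes among the 45706 genes listed, and all 10 passed the filter of a mean of at least 1 count per library that left 25146 genes for testing. Both genotypes carried 2 floxed Arid1a alleles. Arid1a codes for a subunit of a chromatin remodeling complex. Only the cKO mice also carried Ltf iCre, a Cre recombinase under control of the lactoferrin gene, which is active in the endometrial epithelium of the adult. The females were mature adults on a mixed background of C57BL/6 with 129S6/SvEvTac, 129P2/OlaHsd and 129S1/SvImJ, and had mated with wildtype males. RNA came from a part of each whole uterus, with epithelium, stroma, muscle, vessels and immune cells together, and each library was 1 mouse.

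Keratins are the intermediate filament proteins of epithelial cells. A filament is built from pairs of 1 acidic type I keratin (Krt18, Krt19, Krt14, Krt15, Krt17 and Krt23 here) and 1 basic type II keratin (Krt7, Krt8, Krt5 and Krt80 here), so an epithelium expresses members of both types. The columnar luminal and glandular epithelium of the uterus is known for Krt8, Krt18, Krt19 and Krt7. Krt5 and Krt14 are the classical pair of basal cells in layered epithelia, where Krt15 also occurs, and Krt17 is a keratin of skin appendages and injury.

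Arid1a and Ltf were looked at first. Whole-gene counts of Arid1a cannot check a deletion meant for the epithelium, because the RNA also came from stroma, muscle, vessels and immune cells. Arid1a stood at 213 ± 22.9 CPM (counts per library brought to the same library size; mean ± SD, n = 5) in controls and at 185 ± 15.9 CPM in cKO uteri, and this difference did not pass the test (log2 fold change -0.20, standard error (SE) 0.09, adjusted p = 0.201, edgeR). Ltf, whose locus holds the Cre, stood between 2.23 and 11.7 CPM in controls and at 383, 23.6, 39.8, 290 and 2831 CPM in cKO uteri (log2 fold change 7.23, SE 1.36, adjusted p = 0.00920, edgeR). The cKO mean was 713 CPM, and 184 CPM without replicate 5. The libraries held between 59296537 and 72702411 counts. Of all genes tested, 2438 passed an adjusted p of 0.05, which is 9.7%, and the median log2 fold change of all genes was 0.03.

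Of the 10 keratins, which were chosen with earlier results of these data known, 4 passed this test. Krt7, Krt8 and Krt19 rose in the cKO uteri and Krt23 fell. Over all genes 5.19% were called higher and 4.51% lower. The same 4 keratins were those whose 2 groups of libraries did not overlap, beside 10.7% of all genes (5.53% with the cKO libraries above and 5.16% with them below). DESeq2 called these 4 and also Krt80, as higher, where over all genes it called 16.3%, with 8.47% higher and 7.84% lower. The median log2 fold change of the 10 members was 0.26. Because the RNA is from bulk tissue, fewer cells of a type and less RNA per cell cannot be told apart in any of these values.

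**Figure D1:**
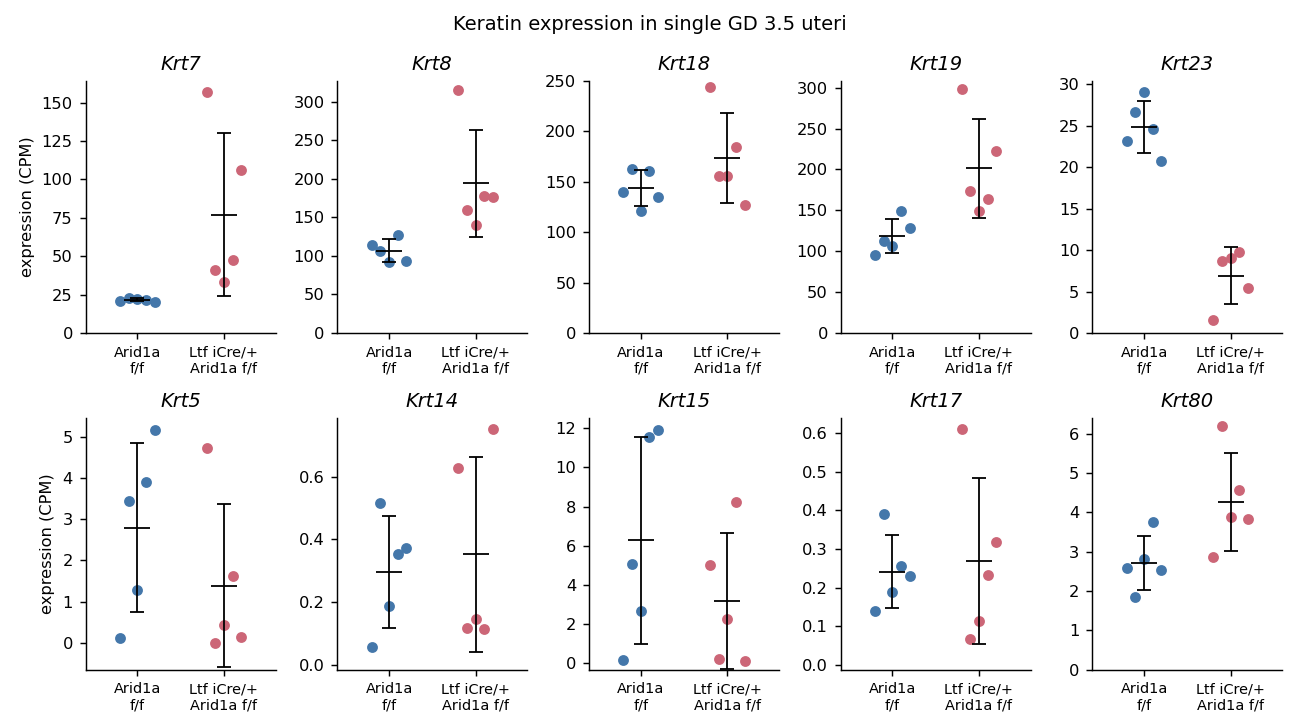
Expression of each keratin in CPM (vertical axis, linear, a separate scale for each gene) in the 5 control uteri and the 5 cKO uteri. Points are single uteri, placed from replicate 1 to replicate 5 from left to right, and bars are the mean ± SD. Krt7, Krt8 and Krt19 lie above all controls in each of the 5 cKO uteri, Krt23 lies below all controls, and Krt5, Krt14, Krt15 and Krt17 spread widely within each genotype.

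The promoters of the 3 simple keratins found in the RefSeq promoter table (GRCm38.p6, 250 bases before to 50 bases from the start site) and that of Krt23 are shown because Krt7 and Krt8 rose, Krt23 fell and Krt18, the usual partner of Krt8, did not pass the test. Of the 10 members 6 were in this table, and Krt19, Krt15, Krt17 and Krt80 were not. Each is printed 5′ to 3′ along the gene's strand, and capitals mark the TATA box (TATAAA), a variant of it (ATAAAA) and the GC box (GGGCGG), each on either strand.
Krt7 (plus strand, chr15:101412153-101412452): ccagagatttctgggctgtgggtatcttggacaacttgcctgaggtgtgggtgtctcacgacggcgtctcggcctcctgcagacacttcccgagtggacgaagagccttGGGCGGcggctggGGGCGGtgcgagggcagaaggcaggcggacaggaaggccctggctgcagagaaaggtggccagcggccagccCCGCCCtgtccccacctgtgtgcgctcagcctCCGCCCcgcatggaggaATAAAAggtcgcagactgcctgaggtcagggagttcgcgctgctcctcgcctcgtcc
Krt8 (minus strand, chr15:102004293-102004592): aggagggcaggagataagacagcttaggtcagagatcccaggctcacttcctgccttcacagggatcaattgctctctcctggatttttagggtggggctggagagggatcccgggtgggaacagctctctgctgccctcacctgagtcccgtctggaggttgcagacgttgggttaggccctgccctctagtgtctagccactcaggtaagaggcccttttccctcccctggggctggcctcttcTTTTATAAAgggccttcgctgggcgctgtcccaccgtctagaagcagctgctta
Krt18 (plus strand, chr15:102027966-102028265): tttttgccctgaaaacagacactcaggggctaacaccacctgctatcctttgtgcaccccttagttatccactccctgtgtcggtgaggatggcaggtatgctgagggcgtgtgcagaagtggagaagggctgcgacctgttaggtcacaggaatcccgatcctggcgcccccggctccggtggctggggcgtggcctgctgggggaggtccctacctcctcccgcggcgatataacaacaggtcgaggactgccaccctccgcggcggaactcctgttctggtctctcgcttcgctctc
Krt23 (minus strand, chr11:99493071-99493370): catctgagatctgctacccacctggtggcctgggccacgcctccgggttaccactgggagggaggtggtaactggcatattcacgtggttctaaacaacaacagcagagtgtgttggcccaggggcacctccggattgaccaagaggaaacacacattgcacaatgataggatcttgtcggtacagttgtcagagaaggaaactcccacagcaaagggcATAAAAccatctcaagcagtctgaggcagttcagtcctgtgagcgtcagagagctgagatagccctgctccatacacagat

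Krt23 held ATAAAA with its first base at position -31, counted from the start site as +1, and Krt5, whose promoter is not printed, held it at -29. Krt7 held ATAAAA at -7 and 4 copies of GGGCGG. Krt8 held TATAAA on the gene's strand at -1 and on the opposite strand at -3, and ATAAAA on the opposite strand at -4, and these matches overlap. Krt18 held none of the 3 motifs. TATAAA or ATAAAA occurred in 24.7% of all 32851 promoters in the table and GGGCGG in 35.7%. The start site of the table differed from the gene start in GENCODE, which lay further upstream by 1360 bases for Krt7, 140 bases for Krt8, 36 bases for Krt18 and 17 bases for Krt23. These matches are a description of the letters in each window.

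Krt7 is the type II keratin of ducts and glandular linings. The 5 control uteri gave 20.8, 23.0, 22.3, 21.8 and 20.5 CPM. The 5 cKO uteri gave 157, 41.2, 33.0, 47.7 and 106 CPM. All controls thus lay within a narrow band, and each cKO uterus lay above it, with replicates 1 and 5 far above the other 3. The mean went from 21.7 ± 1.02 to 77.1 ± 53.3 CPM, a log2 fold change of 1.83 (SE 0.38, adjusted p = 0.0140, edgeR). The two-sided exact permutation test over all arrangements of the 10 uteri gave p = 0.00794, the smallest p it can give. Without replicates 1 and 5 the log2 fold change was 0.91 and the adjusted p was 0.000874, an alternative chosen after seeing the data. The gene (ENSMUSG00000023039) lies on chromosome 15 from 101411043 to 101430313 (GRCm38, plus strand). The antisense gene Gm671 overlaps 77 of its exonic bases.

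Krt8 is the main type II keratin of simple epithelia. It stood at 114, 106, 91.4, 128 and 93.5 CPM in the controls. In the cKO uteri it stood at 315, 160, 140, 178 and 177 CPM. The lowest of these was above the highest control, and replicate 1 stood apart from the other 4. The mean went from 106 ± 14.96 to 194 ± 69.6 CPM (log2 fold change 0.87, SE 0.20, adjusted p = 0.0220, edgeR), with an exact permutation p of 0.00794. Leaving out control replicate 2, 3 or 5 raised the adjusted p to between 0.0544 and 0.0618 and ended the call. Of the 50-base stretches of Krt8 transcripts, 29.7% also occur in other genes, mostly in the pseudogene Krt8-ps, so the count of Krt8 is less certain than that of the other simple keratins. Gm36026, on the opposite strand, overlaps 101 of its exonic bases. Krt8 lies on chromosome 15 from 101996698 to 102004482 (GRCm38, minus strand).

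Krt19, on chromosome 11 from 100140810 to 100148665 (GRCm38, minus strand), is a type I keratin of ductal and luminal epithelia. It stood at 95.4, 113, 106, 149.5 and 128 CPM in the controls. In the cKO uteri it stood at 298, 174, 149.5, 164 and 223 CPM. The highest control, replicate 4, and the lowest cKO uterus, replicate 3, all but met. The mean went from 118 ± 21.1 to 202 ± 60.6 CPM (log2 fold change 0.77, SE 0.19, adjusted p = 0.0289, edgeR; exact permutation p = 0.00794). This call was the least stable of the 4. It was lost when control replicate 1, 2, 3 or 5 was left out (adjusted p 0.0516 to 0.0737) and when cKO replicates 1 and 5 were both left out (log2 fold change 0.46, adjusted p = 0.0552).

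Krt18 is the type I partner of Krt8. The controls gave 140, 163, 121, 160 and 135 CPM and the cKO uteri gave 244, 156, 156, 185 and 127 CPM. The groups overlapped, with replicate 1 the highest library and replicate 5 of the same genotype close to the lowest control. The means were 144 ± 17.7 and 174 ± 44.3 CPM, and the difference did not pass the test (log2 fold change 0.27, SE 0.16, adjusted p = 0.316, edgeR; exact permutation p = 0.190). Krt18 spans 102028180 to 102032027 on chromosome 15 (GRCm38, plus strand), 23697 bases from Krt8, and their log2 fold changes were 0.27 and 0.87. The per-length ratio of Krt8 to Krt18, in TPM (counts per kilobase of exon, scaled to the same total in each library), was 0.544 ± 0.051 in controls, from 0.476 to 0.596. It was 0.817 ± 0.159 in cKO uteri, from 0.656 to 1.02, so these ranges did not overlap.

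Krt23 is a type I keratin of glandular and gastrointestinal epithelia. It stood at 23.1, 26.6, 29.0, 24.6 and 20.7 CPM in the controls. In the cKO uteri it stood at 1.62, 8.72, 9.06, 9.82 and 5.44 CPM. The uteri with the least Krt23, replicates 1 and 5, were those with the most Krt7. The mean went from 24.8 ± 3.17 to 6.93 ± 3.41 CPM (log2 fold change -1.84, SE 0.37, adjusted p = 0.0123, edgeR; exact permutation p = 0.00794), and the call held with each of the 10 libraries left out, at an adjusted p of at most 0.0352. Its neighbour Krt20, at 0.177 and 0.634 CPM, and its other neighbour Krt39, at 0.132 and 0.0591 CPM, did not pass the test. Krt20 reached 2.29 CPM in 1 cKO library, while Krt39 had at most 14 counts in any. The gene (ENSMUSG00000006777) lies on chromosome 11 from 99477974 to 99493137 (GRCm38, minus strand).

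Krt80, a type II keratin linked to epithelial differentiation, stood at 2.59, 1.84, 2.82, 3.75 and 2.54 CPM in controls and at 2.85, 6.19, 3.88, 4.58 and 3.82 CPM in cKO uteri. Replicate 1, the library with the most Krt7 and Krt8, had the least Krt80 of its genotype and fell within the range of the controls. The means were 2.71 ± 0.69 and 4.26 ± 1.24 CPM (log2 fold change 0.65, SE 0.24, adjusted p = 0.114, edgeR). The exact permutation test of this single gene gave p = 0.0159, and DESeq2 gave an adjusted p of 0.0411. An antisense gene, Gm35853, overlaps Krt80 over 263 exonic bases, and whether reads were counted by strand is not given in the sources used here, so reads of the 2 genes cannot be told apart, and the same holds for the other overlapping genes named here. The miRNA gene Mir1941 also lies within Krt80, with 0 exonic bases shared.

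**Figure D2:**
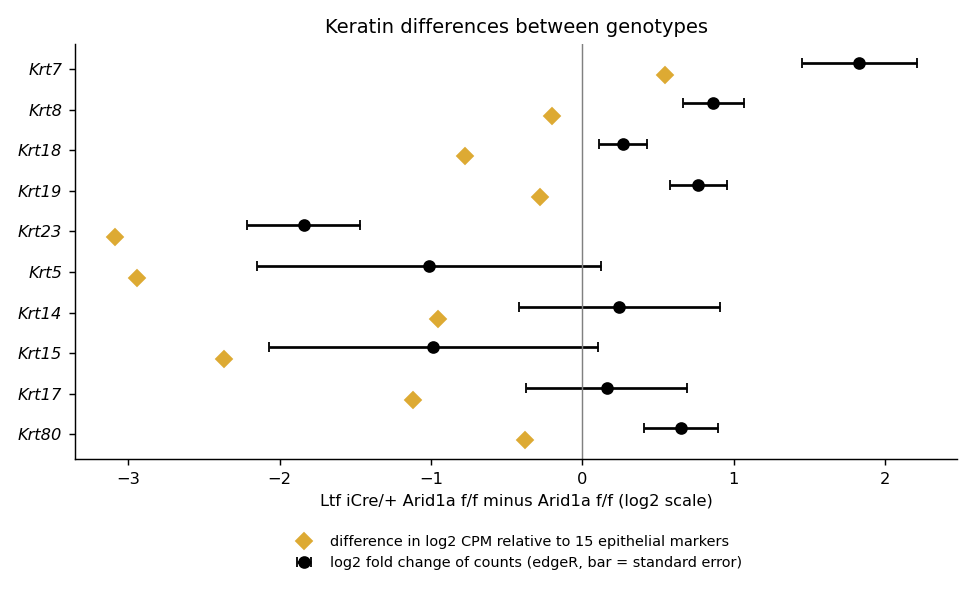
Difference between cKO and control uteri on the log2 scale (horizontal axis) for each of the 10 keratins. Black points are log2 fold changes of the counts with their standard error as bars, and yellow diamonds are differences in log2 CPM relative to the mean of 15 epithelial markers. By counts Krt7 is the highest at 1.83 and Krt23 the lowest at -1.84, and relative to the 15 markers only Krt7 remains above 0.

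The stratified and stress keratins varied more between uteri of 1 genotype than between genotypes. Krt15 ranged from 0.154 to 11.9 CPM in controls, with a median of 5.07, and from 0.116 to 8.25 CPM in cKO uteri, with a median of 2.26 (log2 fold change -0.98, SE 1.09, adjusted p = 0.628, edgeR). Krt5 gave 8, 248, 82, 276 and 361 counts in the controls. In the cKO uteri it gave 302, 0, 26, 112 and 9 counts. Control replicate 1 thus had nearly no Krt5, and cKO replicate 1 had as much as the controls that expressed it. The log2 fold change was -1.01 with an SE of 1.14 (adjusted p = 0.635, edgeR), so differences in either direction lie within the error. A miRNA gene, Gm44323, overlaps Krt5 on the opposite strand over 129 exonic bases and had 0 counts. A count of 0 at this depth allows up to 3 counts, which is 0.0506 CPM in the smallest library, for counting error only.

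Krt5 and Krt15 went together over the 10 uteri. Their log2 CPM had a Pearson r of 0.916 and a Spearman rho of 0.867, and r was 0.912 for deviations from the genotype means. The 10 points share their libraries, and the correlation is a description. Each of the 2 was the gene most like the other among 14591 genes with a mean of at least 100 counts. Trp63, the transcription factor of basal epithelial cells, is named here after its values were seen. It ranged from 1.57 to 3.29 CPM in controls and from 0.957 to 2.61 CPM in cKO uteri. Over the same 10 libraries its log2 CPM had a Spearman rho of 0.321 with Krt5 and 0.636 with Krt15 (Pearson r 0.139 and 0.273), again as a description. Other genes of stratified epithelia, also picked after their values were seen, differed in this. Col17a1 was lowest of the controls in replicate 1 (1.315 CPM) and lowest of the cKO uteri in replicates 2 and 5 (0.913 and 0.912 CPM). Dsg3 stood at 1.09 CPM in control replicate 1, within a control range of 0.282 to 1.36 CPM, and was highest of the cKO uteri in replicate 5 (0.159 CPM).

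Krt14 and Krt17, the other type I members of this group, were close to the detection limit, with 4 to 52 counts for Krt14 and 4 to 39 counts for Krt17 in a library. Krt14 stood at 0.298 ± 0.178 CPM in controls and 0.352 ± 0.312 CPM in cKO uteri (log2 fold change 0.24, SE 0.66, adjusted p = 0.862, edgeR). Krt17 stood at 0.241 ± 0.094 and 0.269 ± 0.215 CPM (log2 fold change 0.16, SE 0.53, adjusted p = 0.889, edgeR). The sign of both turned when cKO replicate 1 was left out, to -0.06 for Krt14 and -0.38 for Krt17, so neither has a direction in these data. Of the 50-base stretches of Krt14, 11.4% also occur in Krt16 and 3.34% in Krt17.

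**Figure D3:**
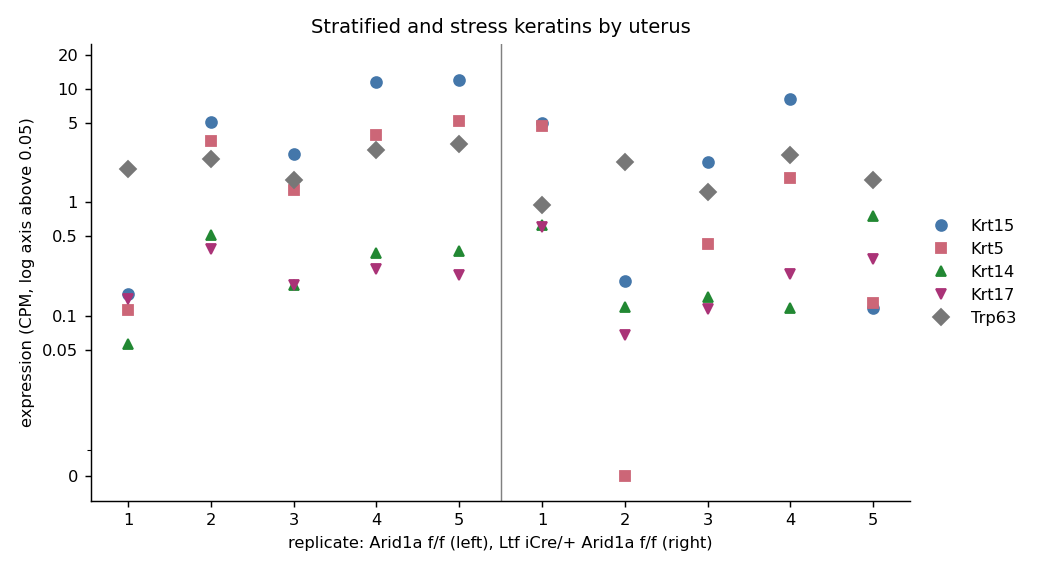
Expression in CPM (vertical axis, logarithmic above 0.05 and linear down to 0) of Krt15, Krt5, Krt14, Krt17 and Trp63 in each of the 5 control uteri (left) and the 5 cKO uteri (right). Krt5 and Krt15 are low together in control replicate 1 and in cKO replicates 2 and 5, and Trp63, named after its values were seen, lies between 0.957 and 3.29 CPM.

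Compared per length, the keratin RNA of the uterus was mostly of 3 genes. In controls the order was led by Krt18 (357 ± 40.3 TPM), above Krt19 (227 ± 37.4 TPM) and Krt8 (194 ± 27.9 TPM), whose ranges overlapped. Krt23 came next at 56.7 ± 7.93 TPM, above Krt15 at 12.5 ± 10.5 TPM and Krt7 at 11.0 ± 0.578 TPM, and the ranges of the last pair overlapped. Krt5 (4.47 TPM), Krt80 (1.51 TPM), Krt14 (0.598 TPM) and Krt17 (0.551 TPM) followed, each overlapping its neighbour in the order. In cKO uteri Krt18 (412 ± 101 TPM), Krt19 (371 ± 109 TPM) and Krt8 (338 ± 118 TPM) overlapped one another in turn. Krt7 at 37.3 ± 25.6 TPM and Krt23 at 15.1 ± 7.44 TPM had changed places, and Krt7 was above Krt23 in 4 of the 5 uteri. The length used was the union of exons, 7049 bases for Krt7, while its longest transcript holds only 4045 stretches of 50 bases. A shorter length would raise the TPM of Krt7, so its place in the order, above all beside Krt15, depends on the length used.

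The share of the simple keratins in the keratin pool was higher in the cKO uteri, but not that of each of them. Krt7, Krt8, Krt18 and Krt19 together made up 91.2% ± 1.24 of the summed TPM of the 10 members in controls and 97.6% ± 1.03 in cKO uteri, with no overlap. The share of Krt23 was 6.62% ± 1.29 in controls and 1.44% ± 0.799 in cKO uteri. Among the simple keratins the share of Krt18 went from 41.3% ± 2.52 to 35.2% ± 5.07, with 3 of the 5 cKO uteri below all controls. The shares of Krt8 (22.4% to 28.1%), Krt19 (26.2% to 31.3%) and Krt7 (1.28% to 2.95%) had higher means. The size of the Krt7 share likewise depends on the length used. The sum of type II over the sum of type I ranged from 0.291 to 0.375 in controls, with a mean of 0.323. It ranged from 0.391 to 0.555 in cKO uteri, with a mean of 0.461, and again did not overlap. These sums rest on the members that were listed and on their own changes, and no test was made of them. The total of the 10 members was 866 ± 90.9 TPM in controls and 1184 ± 326 TPM in cKO uteri, where 3 of the 5 uteri lay above all controls.

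**Figure D4:**
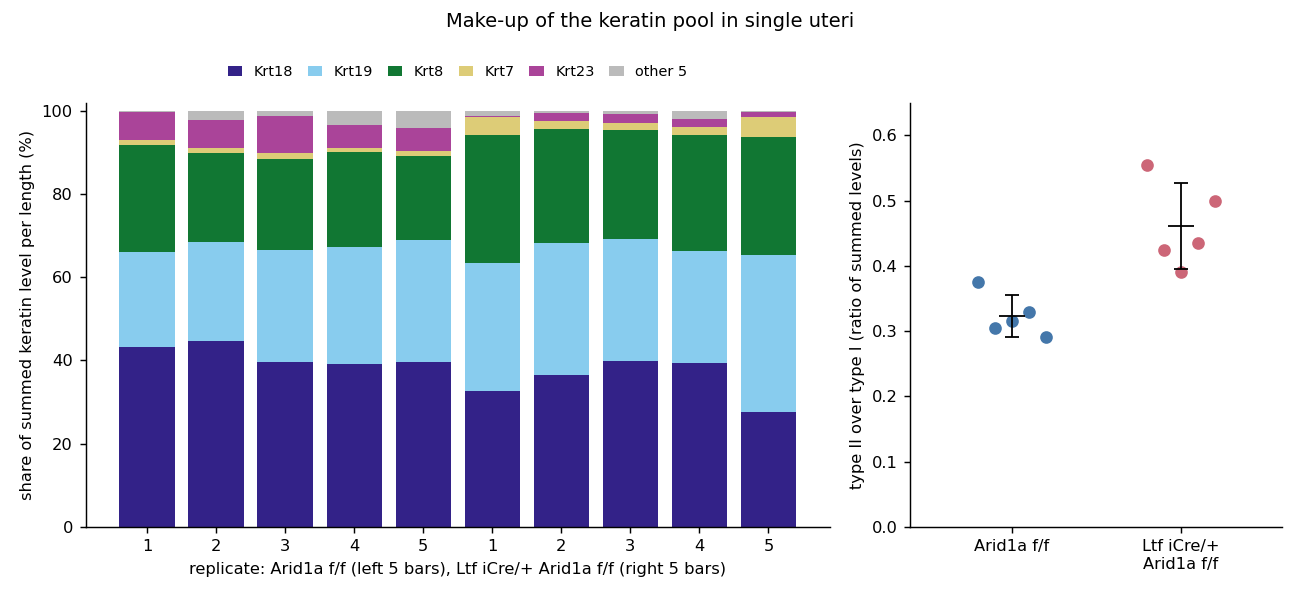
Left, share of each keratin in the summed per-length level of the 10 members (percent) in each uterus, with the 5 control uteri first. Right, ratio of summed type II to summed type I levels, where points are uteri and bars are the mean ± SD. The Krt23 share shrinks from between 5.51% and 8.72% to between 0.198% and 2.12%, and the ratio goes from a mean of 0.323 to a mean of 0.461.

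Epithelial markers that hold no keratin moved with these genes. Of 15 such markers 9 rose and 0 fell by edgeR, with a median log2 fold change of 0.70. Over all genes 5.19% were called higher and 4.51% lower, to be set beside this count and each list count below. These markers and the lists below were also chosen with earlier results of these data known. The summed level of the 15 markers was 716 to 940 CPM in controls and 1066 to 1885 CPM in cKO uteri. Among them Cdh1, the adhesion protein E-cadherin, went from 237 to 419 CPM (log2 fold change 0.82, adjusted p = 0.0106, edgeR). Epcam, a surface protein of epithelial cells, went from 88.6 to 203 CPM (log2 fold change 1.20, adjusted p = 0.0370, edgeR). Its call held in only 3 of the 10 settings with 1 library left out. The part of these markers in the rise of the keratins was not tested.

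Relative to the mean log2 CPM of the 15 markers, Krt18 was lower in each cKO uterus than in any control. The difference was -0.77 on the log2 scale, from 2.48 ± 0.103 to 1.70 ± 0.186 (exact permutation p = 0.00794, 1 of 10 such tests). Krt23 was lower by the same test (-3.09, p = 0.00794 by exact permutation). Krt8 (-0.20, exact p = 0.0952) and Krt19 (-0.28, exact p = 0.0873) did not pass, nor did Krt7 (0.55, exact p = 0.254). These values depend on which markers serve as the reference. With the median of the 15 markers in place of their mean, each marker first centred on its own mean over the libraries, an alternative chosen after seeing the data, Krt18 was still lower (-0.43, exact p = 0.00794), and so was Krt23 (-2.74, exact p = 0.00794). Krt8 and Krt19 then turned to 0.14 and 0.064, neither past the test, and Krt7 came to 0.89 (exact p = 0.0159). Against Epcam and Cdh1 alone the values were -0.66 for Krt18 (exact p = 0.00794) and 0.66 for Krt7 (exact p = 0.00794). Across the 3 references, Krt18 and Krt23 were thus lower each time. For Krt17 the difference relative to the 15 markers was -1.12 (exact p = 0.0476), while the mean of the markers itself was 1.02 higher in cKO uteri. It passed in 3 of the 10 settings with 1 library left out (exact p up to 0.103) and did not pass against the median of the markers (-0.77, exact p = 0.111).

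Among the genes of filament partners, the desmosomal and hemidesmosomal proteins that anchor or bind keratin, 6 of 19 tested rose and 1 fell (median log2 fold change 0.42). Dsp, the desmoplakin that ties keratin filaments to desmosomes, went from 79.7 ± 9.17 to 172 ± 76.4 CPM (log2 fold change 1.11, adjusted p = 0.0159, edgeR). Perp, a desmosomal membrane protein, went from 21.9 ± 4.88 to 53.3 ± 28.3 CPM (log2 fold change 1.28, adjusted p = 0.0214, edgeR). Fam83h, which binds keratin filaments, went from 13.8 to 23.6 CPM (log2 fold change 0.77, adjusted p = 0.0122, edgeR). The 1 that fell was Dsg3, a desmoglein of stratified epithelia, from 0.845 to 0.0967 CPM (log2 fold change -3.09, adjusted p = 0.00576, edgeR), named here after its value was seen. The hemidesmosomal Itgb4, Col17a1, Plec and Dst did not pass the test, and these 4 were likewise picked from the list after their values were seen.

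Of 15 transcription factors known to act on keratin or epithelial differentiation genes, 6 rose and 0 fell (median log2 fold change 0.74). Elf3, an epithelial ETS factor, stood at 42.2, 51.8, 39.7, 46.4 and 43.3 CPM in controls and at 426, 67.2, 63.0, 68.8 and 210 CPM in cKO uteri. Its highest uteri, replicates 1 and 5, were the 2 with the most Krt7 (log2 fold change 1.90, SE 0.51, adjusted p = 0.0373, edgeR). The call of Elf3 held in only 3 of the 10 settings with 1 library left out. Grhl2, a grainyhead factor of epithelial identity, went from 35.7 to 50.8 CPM (log2 fold change 0.51, adjusted p = 0.0464, edgeR), a call that held in only 2 of these 10 settings. Ovol1, a zinc finger factor of epithelial differentiation, went from 3.48 to 6.17 CPM (log2 fold change 0.83, adjusted p = 0.00745, edgeR). The letters GGAAG, the core bound by ETS factors, occurred on either strand in the promoters of Krt7 and Krt8, 2 of the 6 in the table, beside 71.4% of all promoters.

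Of 15 tested genes of squamous differentiation 3 rose and 0 fell (median log2 fold change 0.59). Cstb, a protease inhibitor, went from 46.7 to 69.3 CPM. Sfn, the adaptor protein stratifin, went from 1.11 to 12.7 CPM (log2 fold change 3.51, adjusted p = 0.00886, edgeR). Scel, a protein of the cornified envelope, went from 0.372 to 3.24 CPM (log2 fold change 3.11, adjusted p = 0.00249, edgeR). Of the 15 other intermediate filament genes 1 rose and 3 fell. Vim, the filament of stromal and other mesenchymal cells, went from 1120 to 582 CPM (log2 fold change -0.94, adjusted p = 0.0139, edgeR), so the RNA of this filament fell where that of Krt7, Krt8 and Krt19 rose. Synm (log2 fold change -0.99) and Nes (-0.77), filaments of muscle and vessels, also fell, and the 1 that rose was Nefm, a neurofilament with at most 194 counts in a library, named after its value was seen.

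Outside the 10 members, 24 of the other 44 keratin genes could be tested and 1 was called, beside 9.7% of all genes. Krt10, a type I keratin of suprabasal layers, stood at 4.85, 8.88, 16.3, 12.0 and 20.95 CPM in controls and at 4.31, 4.82, 6.51, 4.76 and 4.11 CPM in cKO uteri (log2 fold change -1.36, SE 0.33, adjusted p = 0.0258, edgeR). Control replicate 1 lay within the range of the cKO uteri. The call was lost without control replicate 3, 4 or 5 or cKO replicate 1 or 4 (adjusted p 0.0517 to 0.066, edgeR). Krt83, a hair keratin by name, stood at 8.19 ± 2.87 and 4.92 ± 1.37 CPM (adjusted p = 0.119, edgeR), and Krt12, known from the cornea, at 2.59 ± 2.33 and 0.873 ± 0.351 CPM (adjusted p = 0.156, edgeR). Among genes next to the members on the chromosomes, Krt87, which lies 724 bases from Krt7, went from 0.443 to 1.54 CPM without passing the test (adjusted p = 0.203, edgeR). Krt15, 4881 bases from Krt19, had a log2 fold change of -0.98, on the other side of 0 from its neighbour. Eif4b, the gene on the far side of Krt18, fell (log2 fold change -0.39, adjusted p = 0.0444, edgeR).

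Other tissues that express keratins were looked for by their markers, where again 5.19% of all genes were called higher and 4.51% lower. Of 7 tested genes of vagina and cervix 1 fell (Krt10, a call lost in 5 of the 10 settings with 1 library left out) and 0 rose, with a summed level of 7.22 to 26.6 CPM in controls and 6.45 to 8.76 CPM in cKO uteri and a median log2 fold change of -0.48. Krt6a, Krt6b and Krt16 of that list had at most 3 counts in any library. Of 9 tested mesothelial genes 3 rose (Msln, Upk1b and Bnc1), with sums of 196 to 249.4 and 187 to 315 CPM and a median log2 fold change of 0.65. Of 10 gland genes 1 rose (Aldh1a1) and 2 fell (Foxa2 and Wfdc3), with sums of 231 to 368 and 154 to 216 CPM and a median of -1.19. Foxa2, the factor of the uterine glands, went from 12.6 to 5.73 CPM (log2 fold change -1.13, adjusted p = 0.00570, edgeR). Of 9 tested oviduct genes 1 rose (Pax2) and 1 fell (Ovgp1), and of 7 tested blastocyst and trophoblast genes 1 fell (Sox2, with at most 9 counts). Their sums were 265 to 338 and 277 to 415 CPM for oviduct (median -0.13) and 15.2 to 22.2 and 11.1 to 20.9 CPM for blastocyst and trophoblast (median -0.71). In the lists for cells other than epithelium, 8 of 10 endothelial genes fell, as did 1 of 10 stromal genes (Dcn) and 1 of 10 myometrial genes (Synpo2), and 1 of 10 macrophage and neutrophil genes rose (Ly6g). Endothelial sums went from between 943 and 1278 CPM to between 476 and 658 CPM (median -0.91), with no overlap, while the stromal (median -0.32), myometrial (median -0.48) and macrophage and neutrophil sums (median 0.88) overlapped between genotypes. The part of these tissues in the keratin values was not tested. Of the 31 called genes named up to here outside the 10 members, 14 kept the call whichever library was left out. The other 17 lost it at least once (adjusted p up to 0.118, edgeR): Krt10, Perp, Elf3, Grhl2, Synm, Nes, Nefm, Epcam, Eif4b, Aldh1a1, Wfdc3, Msln, Upk1b, Synpo2, Pax2, Sox2 and Ly6g. Of the 10 settings with 1 library left out, Eif4b, Msln, Synpo2 and Sox2 kept the call in only 1. Grhl2 and Nes kept it in 2, and Elf3, Epcam and Pax2 in 3.

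Over the 10 uteri, the genes whose log2 CPM was most like that of a keratin differed between the simple keratins. For Krt7 they were Galnt3 (r = 0.993), Capn5 (r = 0.990) and Car2 (r = 0.987). For Krt8 they were Rbm47 (r = 0.985), Cdh1 (r = 0.980) and Dsp (r = 0.977), and for Krt19 they were Perp (r = 0.981), Rpf1 (r = 0.981) and Ormdl2 (r = 0.980). For Krt18 they were Atxn10 (r = 0.965), Ten1 (r = 0.956) and Pfdn2 (r = 0.939), none of which passed the test of genotype. For Krt23 they were B4galt6 (r = 0.987), Erc2 (r = 0.986) and Ttc23 (r = 0.986), and for Krt80 they were 6720489N17Rik (r = 0.887), Cers3 (r = 0.862) and 2700099C18Rik (r = 0.856). Beside Krt15, Krt5 was most like Rbfox3 (r = 0.880) and Tmem69 (r = 0.874), and beside Krt5, Krt15 was most like Gm1976 (r = 0.883) and Hdhd3 (r = 0.868). These values describe 14591 genes over the same 10 libraries of 2 genotypes, and genes that differ between genotypes share that difference. Besides Cdh1, Dsp and Perp, the genes Galnt3, Capn5, Car2, Rbm47, Rpf1, Ormdl2, B4galt6 and Ttc23 passed the test of genotype by edgeR. The calls of these further genes were not checked with libraries left out. From deviations about the genotype means, pooled over both genotypes, r was 0.986 for Galnt3 with Krt7, 0.967 for Rbm47 with Krt8 and 0.980 for Atxn10 with Krt18. It was 0.952 for Perp with Krt19 and 0.966 for B4galt6 with Krt23. Spearman rho over the 10 uteri was 0.855, 0.952, 0.855, 0.976 and 0.939 for these pairs in turn. Krt7 had an SD of 1.02 CPM in controls and 53.3 CPM in cKO uteri, so its deviations came mostly from the cKO uteri. Among the members themselves, Krt23 ran opposite to Krt7 over the 10 uteri (r = -0.954, Spearman rho -0.733). From deviations about the genotype means of both groups together r was -0.873. Within the controls alone the 2 genes did not run opposite, and control replicate 5 had the least of both (Krt7 20.5 CPM, Krt23 20.7 CPM). In the cKO uteri, replicates 1 and 5 had the most Krt7 and the least Krt23.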

How the data were processed

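Uterine RNA of 5 Arid1a f/f and 5 Ltf iCre/+ Arid1a f/f (cKO) mice at GD 3.5 was made into mRNA libraries and read in 50 bp pairs. The authors trimmed reads with cutadapt 1.18 and Trim Galore 0.6.4, checked them with FastQC 0.11.9, aligned them to GRCm38 with STAR 2.7.3a and deposited whole-number counts per gene, not normalized. The annotation release and the strand setting are not given in the sources used here. Reads shared between genes are not counted by default in this mode, which lowers genes with near-identical copies. Columns were matched to samples by name, and no libraries were duplicates (chi-square of at least 36.1 per gene).

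Symbols and coordinates came from GENCODE M21, which held 45143 of 45706 identifiers. Genes that averaged 1 count or more per library were tested with edgeR 4.0.16 in R 4.3.3 (TMM, quasi-likelihood, genotype only, Benjamini-Hochberg over 25146 genes, threshold 0.05). Fold changes and SE are from this fit. DESeq2 1.42.0, other filters, size factors, a replicate block and leaving out libraries were alternatives. On simulated counts for this comparison, 169 of 200 changed genes were recovered, with 5 false calls among 24610 genes. For single members, the difference in mean log2 CPM (prior count 2) was set against all arrangements of the 10 uteri, two-sided, as an exact permutation test. TPM used the union of exons.

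The members and gene lists were chosen with earlier results of these data known. Beyond all members, Arid1a and Ltf, genes were named by rule: other keratins that passed or had a mean of at least 100 counts, the 3 most expressed genes that passed in each list, the 3 most correlated genes per member, and overlapping or neighbouring genes. Of the epithelial markers only Cdh1 and Epcam were named, and no endothelial gene and not every neighbouring gene was. Most other exceptions are marked where they occur. The 14 lists were keratin filament partners, keratin gene regulators, squamous differentiation, other intermediate filaments, and markers of epithelium, gland, stroma, myometrium, mesothelium, vagina and cervix, oviduct, blastocyst and trophoblast, macrophage and neutrophil, and endothelium. Promoters are from RefSeq (GRCm38.p6). Drawings used matplotlib 3.10.9 in Python 3.11.15. 1 item of the lists is not reported here.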

Additional observations from a re-analysis of the deposited data

Results flagged for a closer look

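Krt8 in Ltf iCre/+ Arid1a f/f replicate 1, at 315 CPM, lay far from the other 4 uteri of its genotype, which ranged from 140 to 178 CPM. The gap to the nearest of them was 0.783 of the whole range, above the critical value of 0.710 for 5 samples. It was 1 of 22 groups tested in this way, and chance gives about 1 in 20. Without this library Krt8 still passed the test.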

How the results depend on the processing

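Under edgeR with DESeq2 size factors, no filter or filterByExpr, the same 4 members were called. DESeq2 called 4103 genes in place of 2438, and 8 keratins in place of 5, adding Krt80, Krt83 and Krt222. Leaving out 1 library gave 1204 to 2381 genes, with the fewest without control replicate 2 (1204), 3 (1248) or 4 (1414). It gave 2 to 4 members, with 2 (Krt7 and Krt23) without control replicate 2, 3 or 5, and 2 to 6 keratins in all. Without both cKO replicates 1 and 5, an alternative chosen after seeing the data, 3 keratins were called. Relative to the 15 epithelial markers 3 members passed, and 2 to 5 with a library left out, with 5 without control replicate 1 or cKO replicate 1. Against the median of the markers in place of their mean, also chosen after seeing the data, Krt8 came to 0.14 and Krt19 to 0.064, on the other side of 0. The difference in the type II to type I ratio was 0.115 to 0.156 with a library left out. With single libraries left out, the log2 fold change of Krt14 was at most 0.53 and that of Krt17 at most 0.40. That of Krt14 turned to -0.03 without control replicate 1, and to -0.06, -0.24 and -1.22 without cKO replicate 1, 5 or both. That of Krt17 turned to -0.38 and -0.78 without cKO replicate 1 or replicates 1 and 5. Replicate numbers did not pair the samples (correlations of same-numbered deviations from -0.165 to 0.217, and 1 of 5 controls closest to its own number). With the replicate block 1704 genes, 3 members and 4 keratins were called, the adjusted p of Krt19 was 0.0693 and Krt17 turned to -0.060. The cause was not tested for any of these. Krt14 had 4 to 52 counts in a library and Krt17 4 to 39.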
